A study of Mus musculus with 32 samples.

Results

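The nuclear genes that encode subunits of the mitochondrial respiratory chain and ATP synthase were followed through 4 bone marrow progenitor gates of the mouse. Members were the protein-coding genes whose symbols begin with Ndufa, Ndufb, Ndufc, Ndufs, Ndufv, Uqcr, Cox4 to Cox8 or Atp5, together with Sdha, Sdhb, Sdhc, Sdhd and Cyc1. Assembly factors named Ndufaf and symbols containing -ps were left out. The rule on symbols uses no measured value, although the gene group itself was picked with earlier results of these data known. This gave 87 of the 55487 genes in the table, namely 38 of complex I, 4 of complex II, 9 of complex III, 18 of complex IV and 18 of complex V. Both identifiers named Atp5o were counted. RNA sequencing had been done on the LSK gate, which holds stem and multipotent progenitor cells without lineage markers and with Sca-1 and Kit. The other gates were CMP, the common myeloid progenitors, MEP, named for megakaryocyte and erythroid progenitors, and GMP, the progenitors of granulocytes and monocytes. Each gate was sorted from the same 8 mice, which gave 32 libraries in 8 groups of 4. All 8 mice carried floxed Cxadr alleles (Cxadrfl/fl), the gene of the coxsackievirus and adenovirus receptor. The 4 control mice were Mx1-Cre- and the 4 Cxadr-ko mice were Mx1-Cre+. Mx1-Cre is a recombinase under an interferon-inducible promoter, which is not restricted to blood cells. Bone marrow cells had been sorted into TRIzol and amplified with a low-input kit, and whether strand was kept was not given in the sources used here.

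Complexes I to IV carry electrons from NADH and succinate to oxygen and, except for complex II, pump protons across the inner mitochondrial membrane, and complex V (ATP synthase) uses the resulting gradient to make ATP. Complexes I, III, IV and V combine nuclear subunits with subunits encoded by mitochondrial DNA, whereas complex II, which is also an enzyme of the TCA cycle, is encoded in the nucleus alone. Blood stem cells are known for relying on glycolysis more than their committed progeny do, and committed myeloid progenitors for a more active respiratory chain. The transcription factors NRF1 and GABPA (NRF2) bind many promoters of respiratory chain genes, and PGC-1 coactivators (Ppargc1a, Ppargc1b and Pprc1) act through them.

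Promoters of members are shown for these factors' known motifs. RefSeq promoters (GRCm38.p6) were matched by symbol for 69 of 86 member symbols, and the 250 bases before each start were searched on both strands. The NRF1 palindrome GCGCANGCGC was found in 13 of the 69 (18.8%), against 4.196% of 26956 other promoters. The ETS core CCGGAAG, the sequence GABPA recognises, was found in 12 of them (17.4%), against 7.80% of the others. CCAAT boxes were found in 30 of them (43.5%) and in 37.5% of the others. Cox6a1, Atp5h and Sdhd hold both of the first 2 motifs. Cox6a1 and Atp5h, both called higher in GMP, are shown, and Sdhd, whose GMP minus LSK difference of 0.17 was not called, is not. Uqcr11 is shown because it holds the ETS core and was among the members with the largest GMP difference, and Sdha and Cox7a2l because both were lower in GMP. These promoters were chosen after the values were seen. Capitals mark the NRF1 palindrome and the ETS core or their reverse complements. All 5 genes lie on the minus strand, at chr5:115348959-115349208 (Cox6a1), chr11:115419920-115420169 (Atp5h), chr10:80406822-80407071 (Uqcr11), chr13:74350241-74350490 (Sdha) and chr17:83514334-83514583 (Cox7a2l), and each sequence is given 5′ to 3′ on its gene's strand.
Cox6a1: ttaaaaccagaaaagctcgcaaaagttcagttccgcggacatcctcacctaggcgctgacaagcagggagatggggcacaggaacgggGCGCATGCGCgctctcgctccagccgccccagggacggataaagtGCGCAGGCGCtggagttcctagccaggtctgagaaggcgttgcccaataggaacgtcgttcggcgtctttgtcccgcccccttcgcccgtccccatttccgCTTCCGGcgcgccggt
Atp5h: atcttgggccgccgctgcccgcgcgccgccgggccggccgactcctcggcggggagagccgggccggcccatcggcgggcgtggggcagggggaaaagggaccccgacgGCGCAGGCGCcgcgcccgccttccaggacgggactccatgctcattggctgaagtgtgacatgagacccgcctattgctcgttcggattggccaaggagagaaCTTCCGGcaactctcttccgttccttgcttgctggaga
Uqcr11: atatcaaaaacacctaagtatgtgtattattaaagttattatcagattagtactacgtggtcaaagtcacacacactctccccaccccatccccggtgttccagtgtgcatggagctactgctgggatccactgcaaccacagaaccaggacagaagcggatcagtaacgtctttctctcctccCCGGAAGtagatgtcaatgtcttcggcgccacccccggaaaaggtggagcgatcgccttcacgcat
Sdha: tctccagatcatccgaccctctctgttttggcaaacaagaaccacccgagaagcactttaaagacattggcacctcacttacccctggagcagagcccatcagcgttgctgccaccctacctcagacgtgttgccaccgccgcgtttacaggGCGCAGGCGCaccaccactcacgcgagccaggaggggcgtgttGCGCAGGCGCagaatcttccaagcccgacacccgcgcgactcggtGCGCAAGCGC
Cox7a2l: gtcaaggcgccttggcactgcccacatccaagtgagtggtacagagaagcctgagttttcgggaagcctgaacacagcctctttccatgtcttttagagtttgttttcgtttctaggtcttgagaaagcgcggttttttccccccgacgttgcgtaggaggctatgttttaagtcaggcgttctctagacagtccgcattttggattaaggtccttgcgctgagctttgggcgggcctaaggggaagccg
The Sdha promoter held 3 matches to the NRF1 palindrome and the Cox7a2l promoter none of either motif. The RefSeq start used for Cox7a2l lies inside the annotated gene, which ends at 83517330 on its 5′ side, and the bases before that end were not searched. A match is a run of letters and no measure of binding.

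The libraries held 8313300 to 13641248 reads assigned to genes, and members took 1.46% to 2.53% of them. Values below are the deposited normalized counts, that is counts divided by 1 size factor per library, and differences are log2 of the value plus 1. A gene was tested where at least 4 of the fitted libraries reached 10, and was called where limma's p, adjusted after Benjamini and Hochberg over all genes tested, was under 0.05. Marker genes fitted the LSK and GMP labels. The summed LSK markers ranged from 28616 to 29940 in LSK and 9303 to 11543 in GMP of control mice, and the summed GMP markers from 12871 to 21073 in LSK and 236004 to 378257 in GMP. The MEP label was less clear in control mice. The 15 MEP and erythroid markers summed to 4767 to 5275 in MEP, 3988 to 4392 in CMP and 10648 to 13443 in LSK. The 6 megakaryocyte markers summed to 537 to 686 in MEP and 325 to 571 in CMP. They reached 502 to 626 in LSK and 259 to 393 in GMP. Their highest median was in MEP in control mice and in LSK in Cxadr-ko mice. Only 1 of 17218 genes was called between CMP and MEP in control mice. MEP is used here as the name of a gate. LSK control mouse 1 stood apart with 12.5% of its reads on immunoglobulin genes. LSK Cxadr-ko mouse 1 had 5.25%, and the other LSK libraries 0.0357% to 1.43%. GMP Cxadr-ko mouse 2 had 1.15%, and the other GMP libraries 0.0273% to 0.0678%. In bulk samples, fewer cells of a type and less RNA per cell cannot be told apart.

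Of the 87 members, 82 passed the filter in all fits. The other 5 were close to silent. Ndufa4l2, a paralog of Ndufa4, had 18 reads over all 32 libraries, and Cox7b2, known from testis, had 22. Cox8b had 1 read, Cox8c had 2 and the second Atp5o identifier (ENSMUSG00000116933), which overlaps the first, had 0. Per kilobase of principal transcript, the median level over the 32 libraries was highest for Ndufa4 (18432 normalized counts per kilobase), Cox4i1 (9656), Uqcr10 (9328) and Uqcrq (8850). Among tested members it was lowest for Cox7a1 (45.8), Cox4i2 (56.4) and Cox6a2 (173), which are isoforms used mainly in muscle, lung or heart.

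Summed subunit mRNA was lowest in LSK and highest in GMP for 4 of the 5 complexes. In control mice the summed normalized count of complex I was 61778 ± 1773 in LSK (SD, n = 4 here and below), 75537 ± 3610 in CMP, 81150 ± 3824 in MEP and 91937 ± 2753 in GMP. Complex III went from 24906 ± 771 in LSK to 35623 ± 1076 in GMP, complex IV from 28447 ± 1251 to 44913 ± 1458 and complex V from 41757 ± 585 to 59451 ± 2547. Complex II was close to level, with 12561 ± 216 in LSK, 12543 ± 1877 in GMP, 12869 ± 911 in CMP and 12242 ± 1541 in MEP. Its share of all members' summed counts was 7.42% ± 0.228 in LSK and 5.13% ± 0.743 in GMP of control mice, and 7.39% ± 0.0763 and 5.62% ± 0.360 in Cxadr-ko mice. LSK and GMP libraries did not overlap in this share in either genotype.

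**Figure D1:**
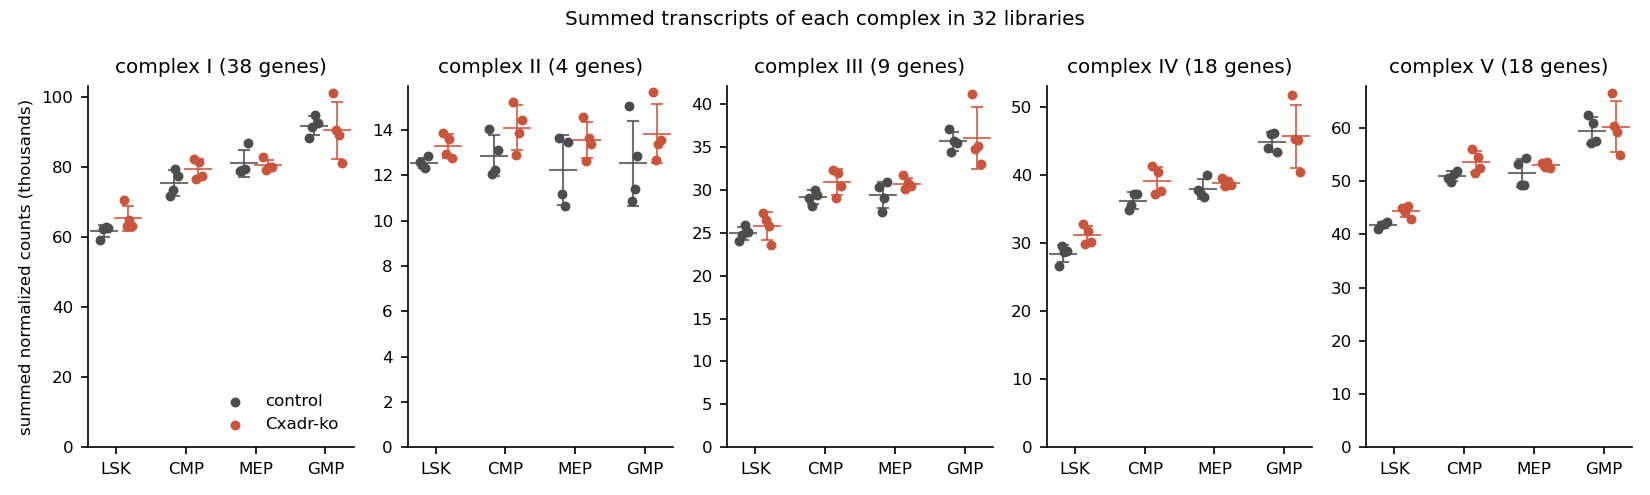
Summed normalized counts of the subunits of each complex in LSK, CMP, MEP and GMP, 1 point per library, with bars at the mean ± SD of 4 mice, for control and Cxadr-ko mice. Sums of complexes I, III, IV and V were highest in GMP, and that of complex II was close to level.

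In control mice 64 of the 82 members were called between GMP and LSK, where 41.9% of all 17218 genes tested were called. Of these members 61 were higher in GMP, and 3 were lower. Among all genes 19.1% were called higher in GMP. The median difference over the members was 0.63, against -0.04 over all genes. In Cxadr-ko mice, a separate set of animals and libraries, 68 members were called (65 higher and 3 lower, median 0.50), where 31.7% of all genes were, and 14.5% were called higher. Both genotypes called 63 of these in the same direction, which is 98.4% of the control calls and 92.6% of the Cxadr-ko calls. Shared calls were not counted over all genes. The median over members was 0.58, 0.63, 0.66 and 0.58 in the 4 control mice and 0.53, 0.56, 0.50 and 0.41 in the 4 Cxadr-ko mice. GMP lay above LSK in every one of the 8 mice for 63 members, a count that was not made over all genes. For 49 members all 8 GMP libraries lay above all 8 LSK libraries, which held for 7.81% of 18475 genes.

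The steps between were smaller and mostly in the same order. CMP was called higher than LSK in 53 members and lower in 2 (median of all 82 members 0.32), with 21.9% of all genes called in that comparison and 10.7% called higher. MEP was called higher than LSK in 57 and lower in 2 (median 0.41), with 26.8% of all genes called and 12.6% called higher. GMP was called higher than CMP in 55 and lower in 1 (median 0.30), with 14.2% of all genes called and 6.38% called higher. GMP was called higher than MEP in 40 and lower in 1 (median 0.20), with 14.9% of all genes called and 6.65% called higher. The count of members called was 25 without control mouse 2 and 21 without control mouse 3. Refits without a mouse, here and below, hold fewer mice, and the share of all genes called in them is not given. Comparisons against LSK share the LSK libraries and those of GMP share the GMP libraries. Between CMP and MEP limma called 0 members (0.00581% of all genes), with 28 members at an unadjusted p under 0.05 (34.1%, against 11.9% of all genes) and 0 calls in edgeR. DESeq2 called 6 of 86 members, and 984 of 38492 genes. The order of group means was LSK, CMP, MEP, GMP from lowest to highest in 56 of 82 members in control mice and in 46 in Cxadr-ko mice, and the order with CMP and MEP swapped was seen in 5 and 21 members. These orders were not counted over all genes.

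In Cxadr-ko mice CMP was called higher than LSK in 51 members (14.3% of all genes called, 7.41% higher), and MEP higher than LSK in 56 and lower in 1 (16.9%, 8.19% higher). GMP was called higher than CMP in 33 and lower in 1 (7.84%, 3.57% higher). That count of 34 was 13 without Cxadr-ko mouse 1, 11 without mouse 2 and 11 without mouse 3. GMP was called higher than MEP in 25 (9.01%, 4.11% higher), and this was 9, 10 and 12 without the same mice in turn. Between CMP and MEP limma called 0 members and 0 of all genes (0%), with 5 members at an unadjusted p under 0.05 (6.10%, against 8.16% of all genes) and 0 calls in edgeR. DESeq2 called 1 of 84 members, and 1030 of 39394 genes. Over the 4 gates together the limma F test called 63 members in control mice, where 39% of all genes were called, and 65 in Cxadr-ko mice, where 26.4% were.

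**Figure D2:**
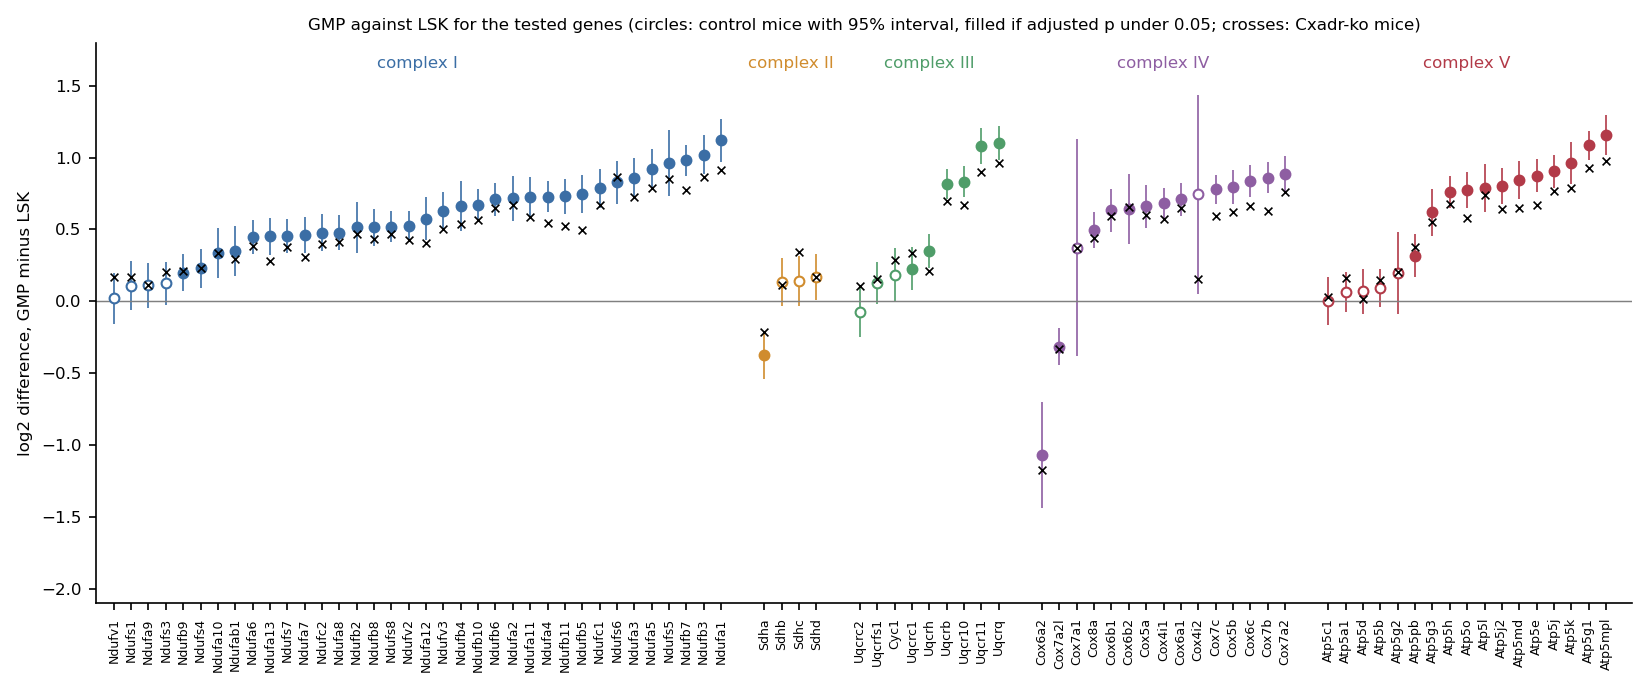
The log2 difference of GMP minus LSK for all but 1 of the 82 tested members by complex, in control mice (circles with 95% interval, filled where called) and in Cxadr-ko mice (crosses). Most members of complexes I, III, IV and V lay above 0, and Cox6a2, Sdha and Cox7a2l lay below it in both genotypes.

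Complex I takes electrons from NADH through a set of core subunits, which hold flavin and iron-sulfur clusters, surrounded by accessory subunits. Of 37 tested members 32 were called higher in GMP than in LSK, and 0 lower, in control mice (median 0.53), and 32 in Cxadr-ko mice (median 0.47). The largest difference was that of Ndufa1, a small accessory subunit needed for assembly. Its normalized counts in control mice 1 to 4 were 1068, 1007, 1096 and 1057 in LSK and 2011, 2518, 2464 and 2237 in GMP. They were 1450, 1427, 1541 and 1507 in CMP and 1641, 1757, 1992 and 2000 in MEP, so no library of any of the 4 gates overlapped the next in control mice. The GMP minus LSK difference was 1.12 (SE 0.07, adjusted p = 1.6e-08 in limma). In Cxadr-ko mice Ndufa1 was 1276, 1079, 1084 and 1021 in LSK and 2299, 2177, 2077 and 1840 in GMP, a difference of 0.91.

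Ndufb3 (1.02), Ndufb7 (0.98), Ndufs5 (0.96) and Ndufa5 (0.92), all accessory, followed Ndufa1 in the control mice. Of the 7 core subunits 3 were called higher (Ndufs7 0.46, Ndufs8 0.52 and Ndufv2 0.53) with a median of 0.13, and of the 30 accessory subunits 29 with a median of 0.67. The accessory subunit not called was Ndufa9 (0.11, SE 0.07). The split into core and accessory was made after the values were seen and was not tested. Ndufa4, which is named for complex I and also described in complex IV, rose from 5894 in LSK to 9792 in GMP (mean of control mice, 0.73).

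Complex II oxidises succinate through the flavoprotein Sdha and the iron-sulfur protein Sdhb, anchored in the membrane by Sdhc and Sdhd. Sdha was the member of this complex that fell. In control mice 1 to 4 it was 4480, 4330, 4535 and 4516 in LSK and 4357, 2921, 2958 and 3735 in GMP. CMP values were 4398, 3682, 3403 and 3708 and MEP values 3864, 3346, 3308 and 3863. GMP of mouse 1 reached the LSK range and the other 3 GMP libraries lay below it. The GMP minus LSK difference was -0.37 (SE 0.08, adjusted p = 0.0015 in limma), and MEP minus LSK was -0.32 (SE 0.08, adjusted p = 0.0083, and 0.058 without control mouse 3).

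In Cxadr-ko mice Sdha was 4446, 4110, 4570 and 4185 in LSK and 4222, 3482, 3637 and 3628 in GMP. That difference was -0.21 (limma adjusted p = 0.017), which no longer passed without mouse 2 or mouse 3 (adjusted p = 0.086 and 0.087). Sdhb (0.14, SE 0.08), Sdhc (0.14, SE 0.08) and Sdhd (0.17, SE 0.07) were not called in control mice, and Sdhc (0.34) and Sdhd (0.17) were called higher in Cxadr-ko mice. The call of Sdhc was lost without mouse 3 (limma adjusted p = 0.066), and that of Sdhd without mouse 1, 3 or 4 (0.098, 0.054 and 0.060) and with quantile normalization (0.33). Sdhd in GMP was 4179, 2928, 2745 and 3124 in control mice and 4233, 3289, 3338 and 3445 in Cxadr-ko mice. Mouse 1 was highest in both, as it was in 7 of the 8 groups for this gene.

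Complex III passes electrons from ubiquinol to cytochrome c through Cyc1 and the Rieske protein Uqcrfs1, next to the core proteins Uqcrc1 and Uqcrc2 and several small subunits. Of 9 members 6 were called higher in GMP than in LSK in control mice (median 0.35) and 7 in Cxadr-ko mice (median 0.33), with 0 lower in both. Uqcrq, a small subunit beside cytochrome b, was 2403, 2399, 2403 and 2345 in LSK and 4829, 5467, 5262 and 4957 in GMP of control mice. In CMP it was 3257, 3344, 3781 and 3371 and in MEP 3495, 3363, 3659 and 3703. GMP stood clear of all other gates and LSK below them, with CMP and MEP overlapping (GMP minus LSK 1.10, SE 0.05, adjusted p = 1.5e-09 in limma). In Cxadr-ko mice Uqcrq was 2823, 2518, 2612 and 2156 in LSK and 5865, 4764, 5041 and 4073 in GMP.

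The other small subunits moved by 1.08 (Uqcr11), 0.83 (Uqcr10), 0.82 (Uqcrb) and 0.35 (Uqcrh) in control mice. Of the redox and core proteins Uqcrc1 was called (0.23), and Uqcrfs1 (0.13), Cyc1 (0.19) and Uqcrc2 (-0.07, SE 0.08) were not. Uqcrc2 was 2161, 2130, 2272 and 2172 in LSK and 2574, 1713, 1922 and 2182 in GMP of control mice. The LSK values lay close together and the GMP values on both sides of them.

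**Figure D3:**
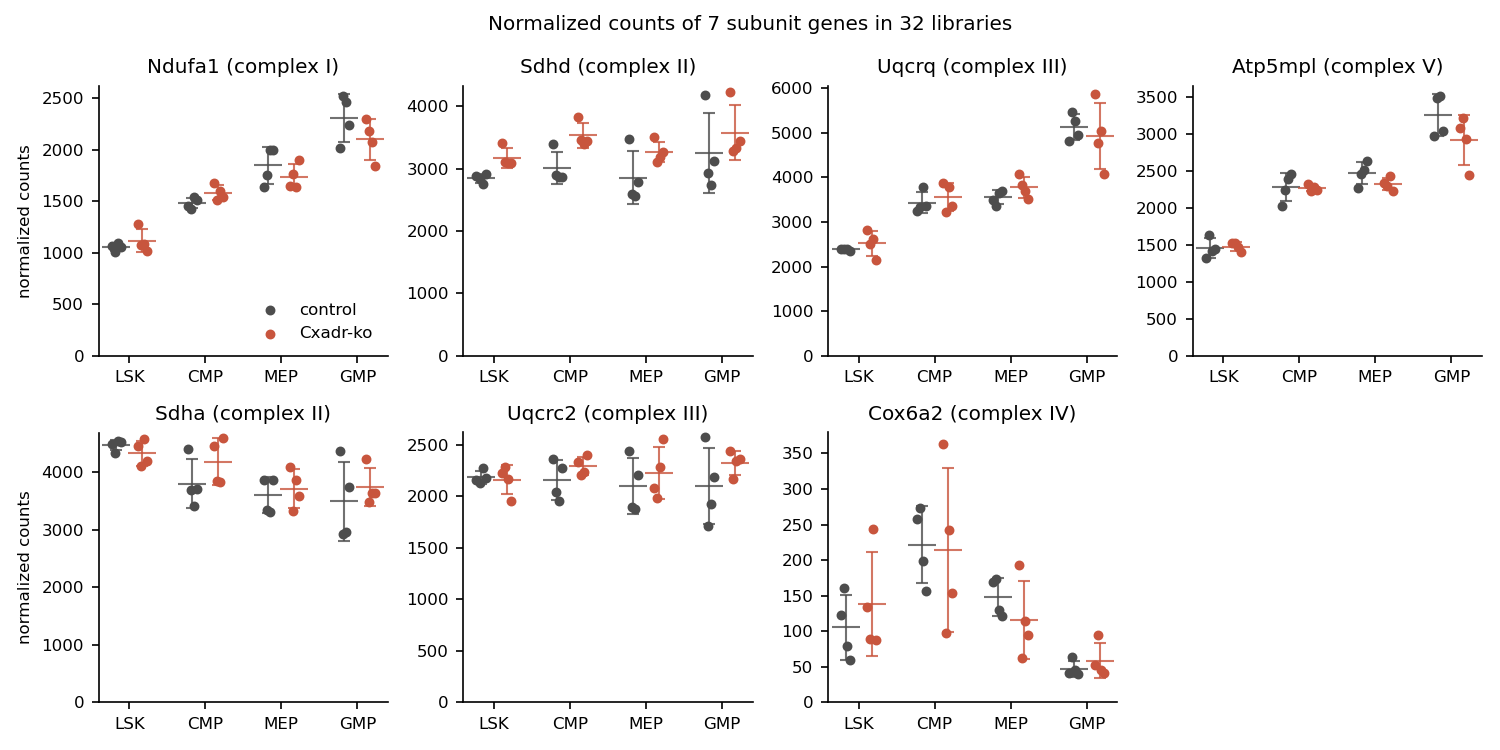
Normalized counts of 7 members in the 32 libraries by gate, with 1 point per mouse and bars at the mean ± SD of 4 mice. Ndufa1, Uqcrq and Atp5mpl were highest in GMP, Uqcrc2 was close to level, Sdha was highest in LSK, Cox6a2 was lowest in GMP, and Sdhd was highest in mouse 1 of most groups.

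Complex IV reduces oxygen, and several of its nuclear subunits come as alternative isoforms. Of 15 tested members 11 were called higher in GMP than in LSK in both genotypes and 2 lower (median 0.68 in control and 0.60 in Cxadr-ko mice). The ubiquitous isoforms rose together. Cox7a2, the isoform of most tissues, was 1554, 1735, 1657 and 1645 in LSK and 2967, 3163, 3170 and 2867 in GMP of control mice. Its CMP values were 2028, 2053, 2318 and 2238 and its MEP values 2246, 2390, 2287 and 2586. LSK was lowest and GMP highest without overlap (0.88, SE 0.06, adjusted p = 4.5e-08 in limma). Cox4i1 was 5233, 5588, 5493 and 5530 in LSK and 8589, 9574, 8844 and 8119 in GMP (0.68), and Cox6a1 (0.71), Cox6b1 (0.63) and Cox8a (0.50) moved the same way.

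Cox7a2l, which is known for joining complexes III and IV into supercomplexes, went the other way. It was 1976, 2529, 2261 and 2493 in LSK and 1822, 1760, 1862 and 1973 in GMP of control mice. In Cxadr-ko mice it was 2012, 2238, 2527 and 2586 in LSK and 1917, 1741, 1947 and 1816 in GMP. All GMP libraries lay below all LSK libraries of the same genotype, with mouse 1 lowest in LSK in both. The difference was -0.31 (SE 0.06, adjusted p = 0.00072 in limma) in control and -0.33 (adjusted p = 0.0024) in Cxadr-ko mice. Per base of transcript, Cox7a2 made up 53.4% ± 1.87 of the Cox7a1, Cox7a2 and Cox7a2l sum in LSK and 72.2% ± 1.79 in GMP of control mice, with 63.2% ± 1.31 in CMP and 65.5% ± 0.375 in MEP. Cox7a2l made up 45.8% ± 1.92 in LSK and 27.0% ± 1.79 in GMP, and the muscle isoform Cox7a1 0.785% ± 0.190 and 0.763% ± 0.199.

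Cox6a2, the heart and skeletal muscle isoform of Cox6a, was low and had its own order. In control mice it was 122, 161, 79.0 and 59.4 in LSK and 258, 274, 199 and 156 in CMP. It was 169, 174, 130 and 121 in MEP and 40.8, 63.8, 45.0 and 39.2 in GMP. CMP was the highest gate in each of the 4 mice and GMP the lowest. GMP minus CMP was -2.20 (adjusted p = 1.3e-06), CMP minus LSK 1.14 (adjusted p = 0.00032) and GMP minus LSK -1.07 (SE 0.17, adjusted p = 0.00018), all in limma. In Cxadr-ko mice Cox6a2 was 134, 89.7, 244 and 87.3 in LSK, 363, 98.2, 242 and 153 in CMP and 52.5, 95.1, 46.2 and 41.3 in GMP. Here GMP mouse 2 reached the LSK values, and GMP minus LSK was -1.17 (SE 0.38, limma adjusted p = 0.032). That call was lost without Cxadr-ko mouse 1, 3 or 4 (adjusted p = 0.099, 0.24 and 0.085).

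Markers of dendritic cells and macrophages had other orders. Siglech, a marker of plasmacytoid dendritic cells, was also highest in CMP but lowest in LSK, and averaged 62.7 in CMP, 43.6 in MEP, 23.9 in GMP and 12.01 in LSK of control mice. The 9 dendritic cell and macrophage markers summed to 8169 to 31081 in LSK, 6355 to 15260 in CMP, 18815 to 33552 in MEP and 8012 to 23375 in GMP, with the lowest median in CMP and the highest in MEP. Their part in the result was not tested.

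The rise was not limited to ubiquitous isoforms. Cox6b2, known from testis, was also called higher in GMP than in LSK of control mice (0.64, against 0.63 for Cox6b1). Cox6b2 made up 11.4% ± 1.24 of the Cox6b1 and Cox6b2 sum per base in LSK and 11.7% ± 2.93 in GMP of control mice. It made up 11.7% ± 1.17 in CMP and 13.9% ± 2.28 in MEP. Cox4i2, the isoform of lung that responds to hypoxia, stayed below 1% of the Cox4i1 and Cox4i2 sum in every group of control mice (0.509% ± 0.225 in LSK and 0.517% ± 0.145 in GMP). Its normalized counts in control mice were 41.9, 26.9, 14.7 and 24.8 in LSK and 59.4, 52.7, 35.1 and 31.6 in GMP. Each mouse was higher in GMP, but the groups overlapped (0.74, SE 0.32, limma adjusted p = 0.079).

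Complex V consists of the catalytic F1 head, the membrane part with its ring of c subunits, and the stalks and dimer subunits between and around them. Of 17 tested members 12 were called higher in GMP than in LSK in control mice (median 0.77) and 13 in Cxadr-ko mice (median 0.64), with 0 lower. Atp5mpl, a small membrane subunit, had the largest difference. LSK libraries of control mice held 1329, 1638, 1415 and 1441, and GMP libraries 2976, 3484, 3510 and 3045. CMP libraries held 2026, 2242, 2391 and 2452, and MEP libraries 2274, 2457, 2513 and 2634. LSK and GMP stood clear of the other gates, and CMP and MEP overlapped (1.16, SE 0.06, adjusted p = 5.4e-09 in limma). In Cxadr-ko mice Atp5mpl was 1523, 1522, 1467 and 1400 in LSK and 3084, 3212, 2925 and 2443 in GMP.

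Of the 5 subunits of the F1 head 4 were not called, and Atp5e rose (0.87). Atp5c1, the central gamma subunit, was 4737, 4726, 4310 and 4792 in LSK and 5903, 3834, 4309 and 4792 in GMP of control mice. GMP of mouse 1 was highest and that of mouse 2 lowest of the 8, with the LSK values between them (0.00, SE 0.08, adjusted p = 0.98 in limma). The catalytic and structural subunits Atp5b (0.09, SE 0.06), Atp5a1 (0.06, SE 0.07) and Atp5d (0.07, SE 0.07) were not called either. Outside the head 11 of 12 were called, with a median of 0.79. This split was also made after the values were seen.

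The c ring is encoded by the paralogs Atp5g1, Atp5g2 and Atp5g3, which give the same mature protein. Atp5g1 was 1923, 2046, 2075 and 1907 in LSK and 3996, 4226, 4611 and 4043 in GMP of control mice (1.08, SE 0.05). Atp5g3 was 2345, 2219, 2359 and 2493 in LSK and 3803, 3806, 3803 and 3091 in GMP (0.62, SE 0.07), and both pairs of gates were fully separated. Atp5g2 was 135, 144, 166 and 153 in LSK and 169, 174, 202 and 144 in GMP, which overlapped (0.20, SE 0.13, limma adjusted p = 0.26). Per base, Atp5g1 made up 47.8% ± 1.93 of the 3 in LSK and 56.5% ± 2.30 in GMP of control mice, and 47.6% ± 0.274 and 54.5% ± 0.943 in Cxadr-ko mice. Atp5g2 made up 4.86% ± 0.327 and 3.10% ± 0.220 in control mice.

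Some members have copies elsewhere in the genome, taken here by name, that could share their reads. How alike each copy is in sequence is not given here. The table lists 17 named copies of 14 members, and 73.7% of the summed counts of Ndufs5 and its copy lay on the copy, 65.8% for Ndufb4, 57.9% for Atp5l, 49.6% for Ndufa12 and 45.8% for Ndufab1. For Cox5b it was 20.7%, for Atp5pb 18.4%, and for the other 7 members 0.0897% to 12.8%. Levels of members that could share reads with a copy are uncertain. Adding the copies to each member left the GMP minus LSK difference within 1 SD between control mice for all 14 (0.88 in place of 0.96 for Ndufs5).

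The difference was related to the length of the coding sequence. Across the 82 members, which share libraries and are not independent replicates, Spearman's rho between the coding length of the principal transcript and GMP minus LSK was -0.68 for the control mice and -0.67 for the Cxadr-ko mice. Across 12028 other protein-coding genes it was -0.105 and -0.145. Of 47 members with coding sequences up to 450 bases 43 were called higher in GMP (91.5%, median 0.79), against 46.4% of 873 other genes of that length (median 0.24). From 450 to 900 bases it was 15 of 23 members (65.2%, median 0.46), against 23.7% of other genes (median -0.05). Above 900 bases it was 3 of 12 members (25%, median 0.10), against 13.5% of other genes (median -0.17). Members above 900 bases included the core subunit Ndufs1 (2181 bases, the longest), Sdha (1992), Atp5a1 (1659) and Atp5b (1587), and also the accessory Ndufa9 (1131) and Ndufa10 (1065). Of these Ndufa10 was called higher (0.34), as was Ndufv3, with 1404 bases and a difference of 0.63. In each length range the members' median was above that of the other genes, which is a description of these libraries with no test.

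**Figure D4:**
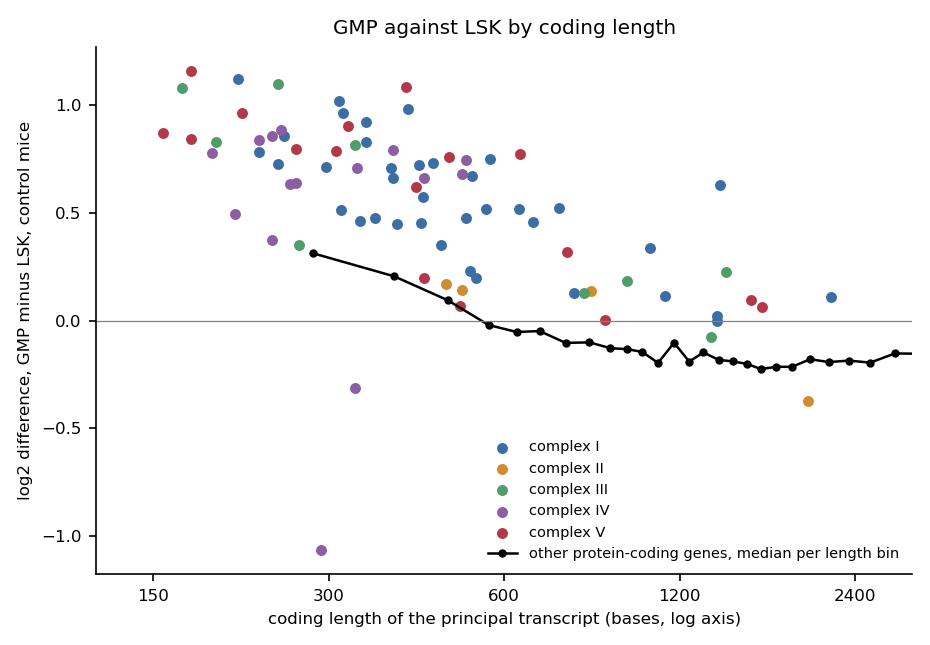
The log2 difference of GMP minus LSK in control mice against coding length in bases (log axis) for the 82 members, coloured by complex, with the median of other protein-coding genes per length bin. Differences were largest among members with coding sequences up to 450 bases.

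Members whose promoters held the NRF1 palindrome had a median GMP minus LSK difference of 0.71 (13 tested members), against 0.62 without it (53). Those with the ETS core had 0.74 (12 members), against 0.55 (54). Of the genes whose promoters are printed above, Uqcr11 was at 1.08, Atp5h at 0.76, Cox6a1 at 0.71, Cox7a2l at -0.31 and Sdha at -0.37.

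The other parts of the mitochondrial programme were counted in the same GMP minus LSK comparison of control mice, where 41.9% of all genes were called and 19.1% were called higher. Of the 13 subunits encoded by mitochondrial DNA 9 could be tested, and all 9 were called higher (median 0.94), with mt-Nd1 at 1.10 and mt-Nd6 at 1.09. The other 4 (mt-Co2, mt-Co3, mt-Atp6 and mt-Atp8) were listed at or near 0 in all libraries. Cytochrome c (Cycs), which carries electrons from complex III to complex IV, was 2460, 2735, 2897 and 2800 in LSK and 6429, 5552, 6475 and 6850 in GMP. The gates did not overlap (1.21, SE 0.06, limma adjusted p = 2.6e-09). Of 44 assembly factors 17 were called higher and 3 lower (median 0.12), led by Uqcc2 (0.84) and Pet100 (0.84). Mitochondrial ribosomal proteins had 58 of 77 higher and 1 lower (median 0.41), and import and cristae genes 14 of 32 higher and 2 lower, with Tomm7 at 0.88 and Timm10 at 0.87.

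Fuel pathways upstream of the chain did not move as one. In that comparison, with 41.9% of all genes called, 6 of 18 TCA cycle enzymes were called higher and 3 lower (median 0.11), with Dlst at 0.76 and Suclg2 at -0.83. Of 25 glycolysis genes 8 were called higher and 10 lower (median -0.05), with Hk3 at 1.37 and Aldoc and the glucose transporter Slc2a3 at -2.57 and -2.51. Of 15 genes of coenzyme Q and cytochrome c 4 were called higher and 3 lower, among them Coq8a at -2.44, and of 12 hypoxia response genes 3 were called higher and 4 lower, with Ero1l at 1.09 and Ndrg1 at -1.24. Cytosolic ribosomal proteins had 58 of 84 higher and 2 lower (median 0.33).

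Of 25 regulators of mitochondrial biogenesis 2 were called higher and 3 lower, against 41.9% of all genes called. Slirp, which stabilises mitochondrial mRNA, was higher (0.95) and so was Ssbp1 (0.20). Gabpb1, the partner of Gabpa, was lower (-0.83), as was Mterf2 (-0.73). The coactivator Ppargc1a was low throughout, with 37.8, 29.6, 21.2 and 56.7 in LSK and 0.927, 2.77, 1.10 and 28.3 in GMP of control mice. Mouse 4 had the highest value in both gates. The difference was -2.93 (SE 0.94, limma adjusted p = 0.021), a call that was lost without control mouse 1, 2 or 3 (adjusted p = 0.10, 0.077 and 0.093), and in Cxadr-ko mice it was -2.71 (SE 0.67, adjusted p = 0.0074). Differences of regulators that were not called were 0.43 for Ppargc1b, 0.37 for Pprc1, -0.17 for Nrf1, -0.10 for Gabpa, 0.60 for Esrra, -0.09 for Tfam, 0.06 for Yy1 and 0.14 for Myc.

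Marker sums of other cells also differed between GMP and LSK. The 9 mature neutrophil markers summed to 287 to 1960 in LSK and 1757 to 21528 in GMP of control mice, and the 10 B and plasma cell markers to 1795 to 74989 in LSK and 809 to 1073 in GMP. All 9 neutrophil markers were above 0 in the mean of both gates. Of the B and plasma cell markers Pax5 was at 0 in LSK and Mzb1 at 0 in GMP, while Jchain made up most of the LSK sum. The 7 T and NK cell markers summed to 3728 to 5988 in LSK and 10847 to 13020 in GMP of control mice, without overlap. Most of this was Nkg7 (mean of 4795 in LSK and 11862 in GMP), while Cd3e averaged 1.24 in LSK and was at 0 in GMP. The part of these markers in the difference was not tested. Without control mouse 1, whose LSK library had the most immunoglobulin reads, 60 members were called between GMP and LSK.

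The second comparison was between genotypes. The targeted gene did not separate them. Cxadr counts ranged from 18.7 to 50.5 in control and 12.3 to 54.5 in Cxadr-ko libraries of LSK, 17.2 to 30.7 and 14.2 to 39.5 in CMP, 11.99 to 38.4 and 12.4 to 20.9 in GMP, while MEP had 6.67 to 27.7 and 0 to 15.5. The limma adjusted p was 0.998, 0.905 and 0.907 for LSK, CMP and GMP. Counts cover the whole gene, and which exons the floxed part spans was not given in the sources used here, so they do not check the deletion. The libraries are called by their labels.

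In limma 0 of 82 members were called between the libraries labelled Cxadr-ko and control in LSK (0.0433% of 16166 genes called), CMP (0.0254%), GMP (0.0192%), MEP (0.0253%) and the mean over gates (0.0217%). The interaction of genotype and gate also called 0 (0% of all genes). At an unadjusted p under 0.05 there were 18 members in LSK (21.95%, against 8.58% of all genes), 16 in CMP (19.5% against 7.27%), 2 in GMP (2.44% against 5.66%), 6 in MEP (7.32% against 5.93%), 14 in the mean over gates (17.1% against 7.93%) and 7 in the interaction (8.54% against 5.86%). edgeR called 0 in each. DESeq2 called 0 except Atp5k, on reads summed over the gates in place of the mean over gates. The count of all genes that DESeq2 called on these summed reads is not given, so this call has no background here.

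More members had higher than lower values in the Cxadr-ko libraries, most of all in LSK and CMP. In LSK 73 of 82 members had higher values (median 0.08, against -0.00 over all genes), in CMP 66 (0.09), in GMP 48 (0.01) and in MEP 49 (0.02). The SD between mice of the per-mouse median was 0.062 in each of LSK and CMP, 0.103 for GMP and 0.044 for MEP. Set against the mean of the control mice, the median over members in LSK was -0.05, 0.02, 0.02 and 0.01 in the control mice and 0.20, 0.06, 0.12 and 0.01 in the Cxadr-ko mice. In CMP it was -0.07, -0.03, 0.06 and 0.04 in control and 0.16, 0.03, 0.14 and 0.05 in Cxadr-ko mice. Mouse 1 had the lowest control value and the highest Cxadr-ko value in both gates, and the groups overlapped in both. Without mouse 1 of both genotypes the medians were 0.03 in LSK and 0.05 in CMP. By animal identifier, mouse 1 of both genotypes stood apart from mice 2 to 4.

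**Figure D5:**
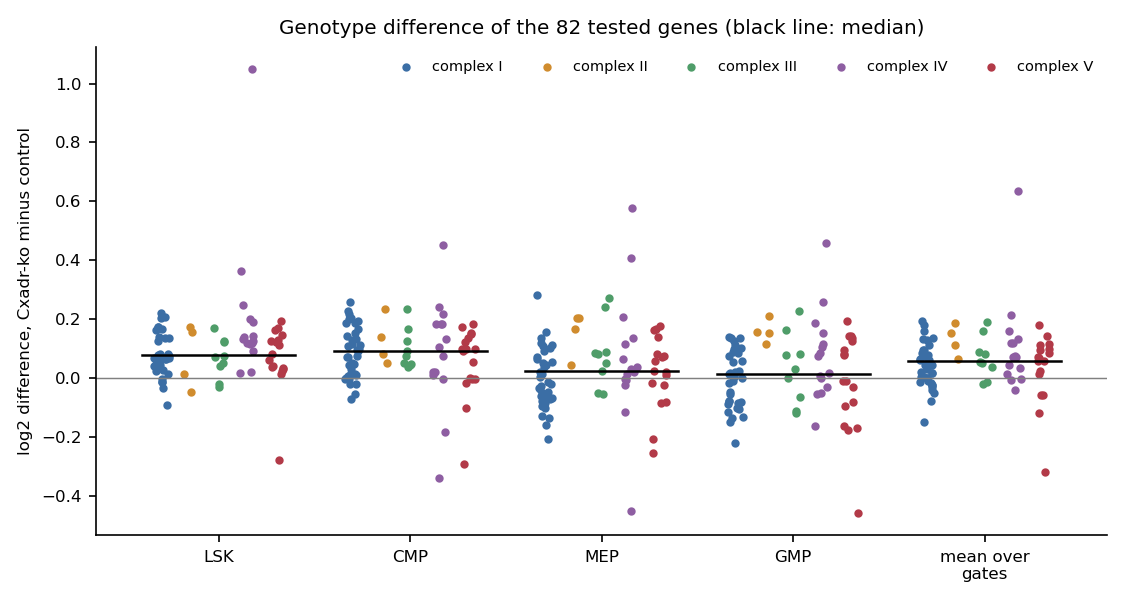
The log2 difference of Cxadr-ko minus control for the 82 members in each gate and in the mean over gates, with a black line at the median. Points are members, coloured by complex. The medians were 0.08 for LSK, 0.09 for CMP, 0.02 for MEP and 0.01 for GMP, and no member passed the test.

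The member with the lowest p was Atp5k, the e subunit of ATP synthase, which takes part in its dimers. LSK libraries held 1172, 1126, 1301 and 1156 in control and 1102, 1080, 917 and 836 in Cxadr-ko mice. GMP libraries held 2411, 2308, 2435 and 2127 in control and 1998, 1650, 1668 and 1470 in Cxadr-ko mice. The genotypes did not overlap in either gate, which adds no support since the gene was picked for its low p. CMP libraries held 1708, 1503, 1720 and 1705 in control and 1569, 1213, 1426 and 1235 in Cxadr-ko mice. MEP libraries held 1784, 1560, 1783 and 1965 in control and 1509, 1686, 1344 and 1411 in Cxadr-ko mice. Here 1 Cxadr-ko library per gate reached above the lowest control library. The mean over gates was -0.32 (SE 0.07, 95% interval -0.48 to -0.16), with an adjusted p of 0.474 in limma. DESeq2, run on reads summed over the gates and not on this mean, gave an adjusted p of 0.0353. By gate the difference was -0.46 in GMP (limma adjusted p = 0.873), -0.29 in CMP (0.620), -0.28 in LSK and -0.25 in MEP (0.824).

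In LSK the lowest p per complex were those of Ndufb11 (0.20, SE 0.06, adjusted p = 0.425), Ndufb8 (0.22), Sdhb (0.17), Sdhd (0.16), Uqcrh (0.17), Uqcrb (0.12), Cox5a (0.25), Cox4i2 (1.05), Atp5c1 (0.17) and Atp5h (0.16), none of which passed in limma. Cox4i2 in LSK was 41.9, 26.9, 14.7 and 24.8 in control and 56.1, 72.2, 45.0 and 45.2 in Cxadr-ko mice. These did not overlap (1.05, SE 0.32, limma adjusted p = 0.468), and each value stood for few reads. Cox5a, a subunit on the matrix side of complex IV, was 1577, 1534, 1635 and 1534 in control and 2077, 1824, 1936 and 1651 in Cxadr-ko LSK, also without overlap (0.25, SE 0.08, limma adjusted p = 0.468). Both genes were picked for their low p in this comparison, so the lack of overlap adds no support.

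In CMP they were Ndufc2 (0.23), Ndufb11 (0.19), Sdhd (0.24), Sdha (0.14), Uqcrfs1 (0.23), Uqcrh (0.13), Cox6a1 (0.18), Cox8a (0.18), Atp5k (-0.29) and Atp5b (0.14), at limma adjusted p of 0.62 or more. In GMP they were Ndufa3 (-0.22), Ndufc2 (0.13), Sdhc (0.21), Sdhb (0.15), Cyc1 (0.23), Uqcrc2 (0.16), Cox7c (-0.16), Cox5a (0.19), Atp5k (-0.46) and Atp5e (-0.17), at 0.873 or more. In MEP they were Ndufa3 (-0.21), Ndufa9 (0.28), Sdhd (0.20), Sdhb (0.20), Uqcrfs1 (0.27), Cyc1 (0.24), Cox6a1 (0.14), Cox5a (0.20), Atp5k (-0.25) and Atp5md (-0.21), at 0.824 or more. In the mean over gates Ndufc2 (0.18, limma adjusted p = 0.546) and Cox5a (0.21, 0.591) followed Atp5k. The lowest p of the interaction was that of Ndufa13 (adjusted p = 0.785 from the limma F test).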

How the data were processed

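RNA-seq was analysed from the authors' deposited table of 32 libraries (4 gates from 4 control and 4 Cxadr-ko mice). The submitters' processing notes name STAR, DESeq2, GRCm38 and mm10, and nothing used here names the counter of reads or the release of the annotation. The deposited values are a signal, each library's gene counts over a single size factor set by the authors. On the values themselves, 100% of 765992 values above 0 lay within 0.001 reads of a whole multiple of a step of 0.814 to 1.28 per library, and the reads recovered with these steps (8313300 to 13641248 per library) were used for edgeR 4.0.16 and DESeq2 1.42.0 as alternatives. In limma the errors of the genotype differences came from the spread between mice. Those of the gate and interaction fits came from the spread left after the mouse block. edgeR and DESeq2 also modelled counting error.

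log2(value + 1) was fitted with limma 3.58.1 (trend on mean level, two-sided, R 4.3.3) for genes that reached 10 in 4 or more of the fitted libraries. Genotypes were compared within each gate (4 against 4 mice), in the mean over gates per mouse, and as a genotype by gate F test with the mouse as a block. Gates were compared within control and within Cxadr-ko mice (16 libraries each) with the mouse as a block, since the 4 gates come from the same animals. Benjamini-Hochberg adjustment covered all genes tested, and a call is an adjusted p under 0.05. Mice numbered alike in the 2 genotypes are different animals and were not paired. Where nothing more is said, SD is over 4 mice.

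The members and lists were chosen with earlier results of these data known, as were the named genes, and so were the splits into core and other subunits and the addition of gene copies. Of the members those with the largest and the lowest GMP minus LSK difference per complex, the isoform families and the 2 of lowest p per complex between genotypes were named in full, and of each other list up to 2 called genes with the largest difference, with listed regulators. The values of 1 member are not reported here. The B and plasma cell, neutrophil and Siglech values, Jchain, Pax5 and Mzb1 were added after their values were seen. Coding lengths are those of the principal transcript of the reference annotation, and promoters came from RefSeq (GRCm38.p6). Alternatives were TMM and quantile scaling, other pseudocounts and filters, no block or a replicate block, all 32 libraries in 1 fit, each mouse left out, edgeR and DESeq2. limma and edgeR were also run on simulated counts with known changes, for the genotype fit in LSK and for GMP minus LSK in control mice. Those counts held no mouse effect, and the outcome is not given here. DESeq2, the mean over gates and the interaction were not run on them.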

Additional observations from a re-analysis of the deposited data

Results flagged for a closer look

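In 9 of 152 groups of 4 libraries, 1 library lay so far from the other 3 that its gap to the nearest exceeded Dixon's 95% critical share of the group's range. Chance flags about 1 in 20 groups. Sdhd accounted for 4 of them, each with mouse 1 highest. It was 3402 in LSK Cxadr-ko mouse 1 (others 3087 to 3100), 3390 in CMP control mouse 1 (others 2861 to 2902), 3827 in CMP Cxadr-ko mouse 1 (others 3399 to 3458) and 4233 in GMP Cxadr-ko mouse 1 (others 3289 to 3445). Uqcrq was lowest in LSK control mouse 4, at 2345. Atp5c1 was lowest in LSK control mouse 3, at 4310. Atp5k was lowest in CMP control mouse 2, at 1503. The summed complex I members were highest in MEP control mouse 4, at 86875 (others 78955 to 79506). The sum of all members was lowest in LSK control mouse 1, at 163358, the library with the most immunoglobulin reads.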

How the results depend on the processing

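Of the 64 members called between GMP and LSK in control mice, 60 to 64 kept their call and all 64 their direction under every alternative run. Leaving out 1 mouse at a time gave 21 to 38 members for GMP against MEP in control mice, 11 to 35 for GMP against CMP and 9 to 27 for GMP against MEP in Cxadr-ko mice. In Cxadr-ko mice GMP against CMP gave 20 members without a filter and 18 without the replicate block. GMP against MEP gave 16 with quantile normalization, 13 without a filter and 12 without the replicate block. The share of all genes called under these settings is not given, and the cause of these changes was not tested. The fit of all 32 libraries averages over both genotypes and is no result for Cxadr-ko mice alone. It called 60 members for GMP against CMP and 55 for GMP against MEP. DESeq2 called 6 members between CMP and MEP in control mice, 1 in Cxadr-ko mice, and 1 (Atp5k) between genotypes on reads summed over the gates. Over all genes, DESeq2 called 984 between CMP and MEP in control mice and 1030 in Cxadr-ko mice, against 1 and 0 with limma and 6 and 0 with edgeR. Between genotypes within a gate it called 12 to 93 genes, against 3 to 7 with limma. Differences near 0 changed sign. Uqcrc2 was 0.017 in the fit of all 32 libraries, which averages over both genotypes. In control mice it was -0.18 to 0.0058 with 1 mouse left out. Atp5a1 was -0.0079 with quantile normalization and -0.031 without mouse 1. Quantile normalization moved the median of all genes by 0.11 in GMP minus LSK in both genotypes, and DESeq2 by 0.13 in both and by 0.12 in MEP minus LSK of control mice, with the member medians above that of all genes in each. With same-numbered mice of the 2 genotypes as a replicate block, 0 members were called in each genotype comparison. Their deviations correlated at 0.51, 0.32, 0.31 and 0.14 (LSK, CMP, GMP, MEP) for number 1 and at -0.08 to 0.10 for the other numbers. Counts behind a value were lowest, among the 82 tested members, for Cox7a1, Cox4i2 and Cox6a2 (medians of 17.99, 41.0 and 118 normalized counts).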
